A study of Homo sapiens with 6 samples.

Results

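Open chromatin at 10 genes of neuroblastoma, a childhood tumor of the sympathetic nervous system, was read from the ATAC-seq peak lists of SK-N-AS cells (SKNAS in the labels) that had been grown from mouse xenografts. The genes were ALK, LMO1, LIN28B, BARD1, NRAS, PTPN11, NF1, TERT, ATRX and CASC15, all known from germline association or from mutation and rearrangement in this tumor. They are 10 of 19963 genes examined in the same way, which were the protein-coding genes of chromosomes 1 to 22 and X, plus the long noncoding RNA gene CASC15. Every peak that overlapped a gene body or lay within 10 kb of either end was taken, and together the 10 windows held 95 and 80 peaks in the naïve libraries, 326 and 262 in the R1 libraries and 66 and 57 in the R2 libraries. All cells came from the same established MYCN-nonamplified line. Naïve cells were cultured from xenografts of mice given vehicle. R1 and R2 cells were cultured from indisulam-resistant tumors, which were taken at the second relapse while the third cycle of indisulam was being given. Indisulam is a sulfonamide that brings the splicing factor RBM39 to the DCAF15 ubiquitin ligase for degradation. The labels record no drug treatment of the cultured cells. Each cell type had 2 libraries of 100000 adherent cells, and neither the labels nor the methods say whether these were separate cultures or which of the excised tumors gave each cell type, so differences between the 2 libraries of a cell type may be technical only.

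ALK is a receptor tyrosine kinase that signals through RAS and the MAPK cascade in developing sympathetic neurons. PTPN11 encodes the phosphatase SHP2, which carries receptor signals to RAS, NRAS is one of the RAS proteins itself, and neurofibromin from NF1 switches RAS off. LMO1 is a bridging protein of transcription factor complexes, CASC15 is a noncoding RNA gene at a neuroblastoma susceptibility locus, and LIN28B blocks the maturation of let-7 microRNAs. TERT is the catalytic subunit of telomerase, ATRX is a chromatin remodeler whose loss accompanies telomerase-independent telomere maintenance, and BARD1 is the partner of BRCA1 in DNA repair. ATAC-seq cuts DNA where it is not wrapped in nucleosomes, so a peak at a start site marks an open promoter, without telling whether the gene is transcribed.

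The 6 lists differed in size from 67558 peaks in R2 library 1 to 340558 in R1 library 1, and the background rate recovered from the deposited values ranged from 0.850 to 7.94 tags per window. A peak was called from 6 tags in both R2 libraries, from 7 and 9 in the naïve libraries and from 14 and 18 in the R1 libraries. The libraries thus differ in what they could call. For the main missing peaks, the tags that a height in another library would have given at that depth are stated. Absences given without such values were not set against depth. To compare libraries, each peak was given its percentile by −log10 p among the 36449 regions that had a peak in all 6 libraries, from 0 for the weakest to 100 for the strongest. In the 2 shallow R2 libraries this scale is coarse, since 10 tags gave percentiles of 30.3 and 24.0 and 11 tags gave 41.5 and 34.0. Height, as used here, is the number of tags at the summit over the library's background rate, and its 95% exact Poisson interval covers counting error only. The common regions had median heights of 12.2 and 14.1 in naïve, 16.0 and 15.5 in R1 and 14.1 and 14.5 in R2 libraries. Equal heights therefore do not mean equal ranks, and the tags stated from another library's height take no account of this. With 2 naïve and 4 resistant libraries there are 15 assignments, so the smallest exact permutation p was 0.0667 one-sided and 0.133 two-sided. No member was tested, and a difference was counted when all 4 resistant libraries lay on one side of both naïve libraries. The cells carried open promoters of both neuroblastoma programs, with 6 of 8 adrenergic and 7 of 10 mesenchymal marker genes having a promoter peak in all 6 libraries. Of 10 blood, liver and erythroid markers, SPI1 alone had a promoter peak in all 6, and the promoters of PTPRC and CD3E (blood) and ALB (liver) had none in any library.

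A promoter peak, meaning a peak within 1000 bp of the canonical start, was present in all 6 libraries at 5 of the 10 genes, LMO1, BARD1, NRAS, PTPN11 and TERT. Over all protein-coding genes the share was 54.8%. A peak anywhere in the window was present in all 6 libraries at 7 of the 10 genes, which were these 5 with ALK and CASC15, against 71.2% of protein-coding genes. Both shares are near the background. Of the 5 genes with a promoter peak everywhere, NRAS ranked higher in all 4 resistant libraries than in both naïve libraries, where 19.3% of 10946 protein-coding genes did so. None of the 5 ranked lower, where 7.82% of genes did. When a missing peak was counted below every peak, a choice made after the values were seen, 3 of 9 genes (ALK, NRAS and NF1) were higher in the resistant libraries against a background of 13.8%, and 1 of 9 (ATRX) was lower against 7.92%. LIN28B had no peak at its canonical start in any library and is not among the 9.

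**Figure D1:**
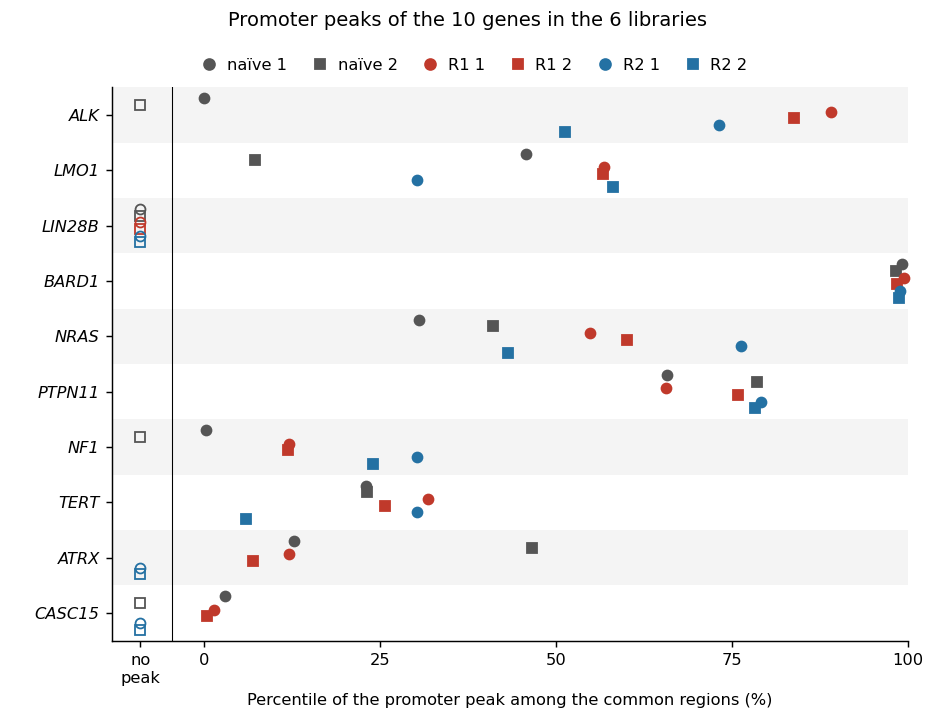
Percentile of each gene's promoter peak among the 36449 common regions (x axis, percent) in each of the 6 libraries; circles are library 1 and squares library 2 of each cell type, and open symbols at the left mark libraries without a peak. The ALK symbols of R1 and R2 lie between 51.3 and 89.1 and the naïve symbols at 0.05 or without a peak, whereas BARD1 is above 98 in every library.

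ALK had the widest separation between naïve and resistant cells of the 10 promoters. The gene lies on the minus strand at chr2:29192774-29921586. Its promoter peak had a percentile of 0.05 in naïve library 1 and was not called in naïve library 2. It stood at 89.1 and 83.9 in the R1 libraries and at 73.2 and 51.3 in the R2 libraries. The groups did not overlap, and R1 ranked above R2. In its own list the peak ranked 150651 of 154926 in naïve library 1, 1835 and 2846 in R1, and 9649 and 16384 in R2 cells. It was also narrow where it was weak, at 200 bp wide in naïve library 1, against 2018 and 1983 bp in R1 and 547 and 649 bp in R2. Heights were 4.37 (95% interval 2.10 to 8.04, 10 tags) in naïve library 1, 31.2 (27.5 to 35.4) and 26.7 (22.5 to 31.4) in R1, and 18.8 (10.8 to 30.6, 16 tags) and 14.5 (7.70 to 24.7, 13 tags) in R2. The counting interval of naïve library 1 thus met that of R2 library 2 and lay below the other 3. The background rates of the naïve libraries were above those of R2, so a peak of that height was within reach of their depth. At the height seen in R2 library 1, naïve libraries 1 and 2 would have shown 43.0 and 25.4 tags, while 10 tags were observed in the first and the second, where peaks were called from 7 tags, had none. At the height of R2 library 2 these values were 33.1 and 19.5. The gap between the lowest resistant and the highest naïve percentile was 51.2 points, and 20 of 17126 protein-coding genes with a promoter peak in any library had a gap at least as wide (0.117%), ALK among them. This rank was looked up after the ALK values were seen and is a description. The 102 common regions within 5 Mb of the ALK window had a median resistant minus naïve difference of 6.91 percentile points, and 73.5% of them lay above 0.

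The ALK promoter and the strongest intronic region of the gene that was called in all 4 resistant and no naïve library are shown because they carry this difference. In these and the later sequences capitals mark every match, on either strand, to the core letters of 8 motifs. These were TGANTCA for AP-1 factors. The cyclic AMP response element (CRE) was searched as TGACGTCA and the E-box of MYC and related factors as CACGTG. ETS factors were given as CCGGAA, while GATA factors were given as GATAA. The GC box of SP and KLF factors was GGGCGG, and the box of NF-Y was CCAAT. TEAD factors were represented by GGAATG. A match is a description of letters and not a bound site. The promoter is RefSeq's 300 bases on GRCh38.p14 (chr2:29921537-29921836, minus strand), and the intronic window is 300 bases of hg38 (chr2:29528923-29529222, plus strand) around the summit in the library where that region ranked best, which the gene's minus-strand transcript crosses in its intron 4.
ALK promoter: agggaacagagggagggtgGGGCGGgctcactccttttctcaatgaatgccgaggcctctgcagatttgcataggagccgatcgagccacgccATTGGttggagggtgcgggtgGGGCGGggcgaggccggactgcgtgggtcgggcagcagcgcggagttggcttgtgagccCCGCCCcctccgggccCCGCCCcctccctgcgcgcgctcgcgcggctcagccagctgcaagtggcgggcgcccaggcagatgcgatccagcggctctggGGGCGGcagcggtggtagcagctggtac
ALK intron: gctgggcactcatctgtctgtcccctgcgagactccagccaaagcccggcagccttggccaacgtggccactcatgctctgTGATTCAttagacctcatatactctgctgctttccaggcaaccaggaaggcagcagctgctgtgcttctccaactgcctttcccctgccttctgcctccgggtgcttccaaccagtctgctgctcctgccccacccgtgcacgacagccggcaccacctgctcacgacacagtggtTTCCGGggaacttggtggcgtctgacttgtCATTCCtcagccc
The promoter had a GC content of 71.0%, against a median of 58.7% over 34943 RefSeq promoters, and held 5 SP and KLF matches, letters found in 44.9% of those promoters, and 1 NF-Y match, found in 34.6%. The intronic window, at 60.3% GC, held 1 AP-1, 1 ETS and 1 TEAD match. Among the 36449 common regions, in windows of the same length, these letters occurred in 9.48%, 13.5% and 13.4%.

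The intronic region (chr2:29528745-29529889) lay 393 kb into the gene. Its percentiles in R1 were 52.3 and 58.2, and those in R2 were 30.3 and 14.1, from 131, 94, 10 and 9 tags. At the height of R2 library 1, naïve libraries 1 and 2 would have shown 26.9 and 15.9 tags, and no peak was called in either. Its window held 17 and 4 peaks in naïve cells, compared with 180 and 128 for R1 and 4 and 5 for R2, or 2.27, 0.53, 24.0, 17.1, 0.53 and 0.67 per 100 kb. Within 1 Mb on either side of the window the densities were 6.95, 4.90, 27.9, 22.6, 1.85 and 2.30 per 100 kb, so in every library the ALK window had fewer peaks per length than its surroundings. In the naïve libraries 12 of 17 and 3 of 4 peaks lay more than 600 kb from the start, in the last 139 kb of the window. The corresponding counts were 72 of 180 and 55 of 128 in R1, and 1 of 4 and 1 of 5 in R2. The strongest naïve peak of the gene was likewise distal, 677 kb from the start in library 1 (percentile 15.9) and 675 kb in library 2 (12.1), whereas in all 4 resistant libraries the promoter was the strongest peak of the window. RefSeq's other ALK start (chr2:29223774-29224073) lay in a region with peaks in both naïve and both R1 libraries and neither R2 library.

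The merged peaks of the 6 lists gave 203 regions in the ALK window, of which 186 were intronic, 73 were called in both R1 libraries only and 113 in a single library, and none was called in all 6. The best of the R1 regions were at chr2:29655398-29655696 in intron 3 (percentiles 21.3 and 20.2), chr2:29749526-29750317 in intron 1 (7.59 and 21.4) and chr2:29706068-29706711 in intron 2 (11.5 and 5.79). Of the 73 regions, 5 would have reached the lowest called pileup of all 4 other libraries at the height of R1 library 1, 47 that of naïve library 1 and 15 that of naïve library 2. The rest of these 73 regions were expected below the lowest called pileup of both R2 libraries, as a point value without counting error.

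**Figure D2:**
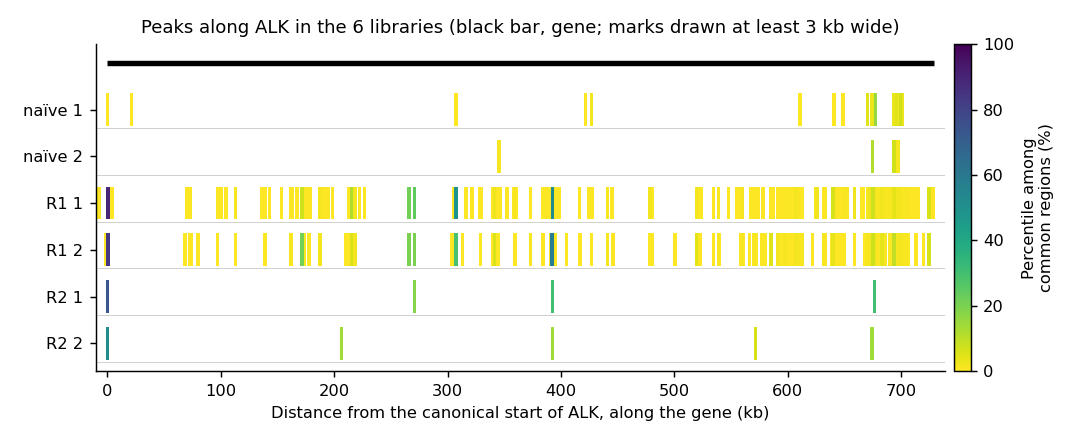
Peaks along ALK in the 6 libraries, with distance from the canonical start in kb on the x axis, 1 row per library and color giving the percentile among common regions; peaks narrower than 3 kb are drawn 3 kb wide. The dark mark at 0 kb is seen in the 4 R1 and R2 libraries, and 12 of 17 and 3 of 4 naïve peaks lie beyond 600 kb.

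In the RAS arm the NRAS and NF1 promoters ranked higher in all 4 resistant libraries, by less than ALK did, and PTPN11 did not differ beyond the spread between libraries. NRAS (chr1:114704469-114716771, minus strand) had a promoter peak at percentiles of 30.6 and 41.0 in naïve cells, of 54.8 and 60.1 in R1 cells and of 76.3 and 43.2 in R2 cells. The naïve libraries were the 2 lowest, but R2 library 2 lay just above naïve library 2. The mean was 35.8 ± 7.38 (SD, n = 2) in naïve and 58.6 ± 13.8 (SD, n = 4) in resistant cells, a difference of 22.8 points, beside a pooled SD of 14.4 between libraries of a cell type. The difference was 21.7 for R1 and 24.0 for R2, while the 94 common regions within 5 Mb had a median of 2.15. Heights were 10.1 (6.37 to 15.1) and 12.6 (7.33 to 20.1) in naïve, 17.1 (14.4 to 20.3) and 17.8 (14.5 to 21.8) in R1, and 20.0 (11.6 to 32.0) and 13.4 (6.90 to 23.3) in R2, so that the counting intervals of naïve and resistant libraries overlapped. The separation was lost when each peak was ranked within its own list (a difference of 2.67 points), where the percentiles were 86.1, 83.7, 97.3, 97.2, 86.6 and 69.1 in the same order. The 2 groups also overlapped when all merged regions served as the scale and when peaks were limited to a −log10 q of at least 5, although the differences of 18.3 and 22.8 points were of similar size. The window held 1 peak in 5 libraries and 2 in naïve library 2. The NRAS promoter is printed as the member that was higher among those with peaks in all libraries (RefSeq, GRCh38.p14, chr1:114716722-114717021, minus strand).
NRAS promoter: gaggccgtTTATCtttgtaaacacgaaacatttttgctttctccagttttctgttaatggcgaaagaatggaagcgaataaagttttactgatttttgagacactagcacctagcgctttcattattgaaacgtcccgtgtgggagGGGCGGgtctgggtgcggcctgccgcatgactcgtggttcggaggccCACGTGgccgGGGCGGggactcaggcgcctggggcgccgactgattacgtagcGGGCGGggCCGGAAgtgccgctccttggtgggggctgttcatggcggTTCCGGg
It held 3 SP and KLF, 2 ETS, 1 E-box and 1 GATA match. ETS letters were found in 17.2% of RefSeq promoters, E-box letters in 7.23% and GATA letters in 22.8%.

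NF1 (chr17:31094927-31382116, plus strand) had a weak promoter peak at a percentile of 0.25 in naïve library 1 and none in naïve library 2. It reached 12.1 and 11.9 in R1 cells and 30.3 and 24.0 in R2 cells. All 4 resistant libraries were higher, and R2 ranked above R1, the reverse of ALK. The tags were 11 in naïve library 1, 71 and 48 in R1 and 10 in each R2 library, giving heights of 4.81 (2.40 to 8.60), 8.94 (6.98 to 11.3), 8.83 (6.51 to 11.7), 11.8 (5.64 to 21.6) and 11.1 (5.34 to 20.5). These intervals overlapped. At the R2 library 1 height, 26.9 and 15.9 tags would have been seen in naïve libraries 1 and 2. The surrounding 75 common regions had a median difference of 6.51, and 859 of 17126 genes had a gap at least as wide as the 11.7 points of NF1. The window held few peaks, with 1, 0, 5, 6, 1 and 2 in the order naïve, R1, R2, although the gene spans 287 kb. Its promoter is shown as the only one of the printed sequences with the CRE letters (RefSeq, GRCh38.p14, chr17:31094727-31095026, plus strand).
NF1 promoter: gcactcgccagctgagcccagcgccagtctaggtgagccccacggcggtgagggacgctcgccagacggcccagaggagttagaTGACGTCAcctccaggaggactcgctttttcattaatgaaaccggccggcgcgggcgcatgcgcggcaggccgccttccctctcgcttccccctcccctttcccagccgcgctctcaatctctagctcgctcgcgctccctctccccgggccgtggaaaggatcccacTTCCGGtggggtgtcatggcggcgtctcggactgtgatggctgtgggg
It held 1 CRE match, found in 1.84% of RefSeq promoters, and 1 ETS match, and no SP and KLF match.

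PTPN11 (chr12:112418351-112509918, plus strand) had promoter percentiles of 65.7 and 78.5 in naïve, 65.6 and 75.8 in R1 and 79.1 and 78.3 in R2 cells. These overlapped. The means differed by 2.59 points, beside a pooled SD of 6.69 between libraries of a cell type. Its window held 7, 5, 38, 32, 4 and 5 peaks in the same order, at a lower density than within 1 Mb around it in all 6 libraries. A region over the start of the ribosomal protein gene RPL6 inside this window (chr12:112409110-112410355) had percentiles of 60.8 and 60.7 in naïve, 10.9 and 25.7 in R1 and 69.3 and 51.3 in R2. There both R1 libraries lay below the other 4, which was not the case at the PTPN11 promoter.

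**Figure D3:**
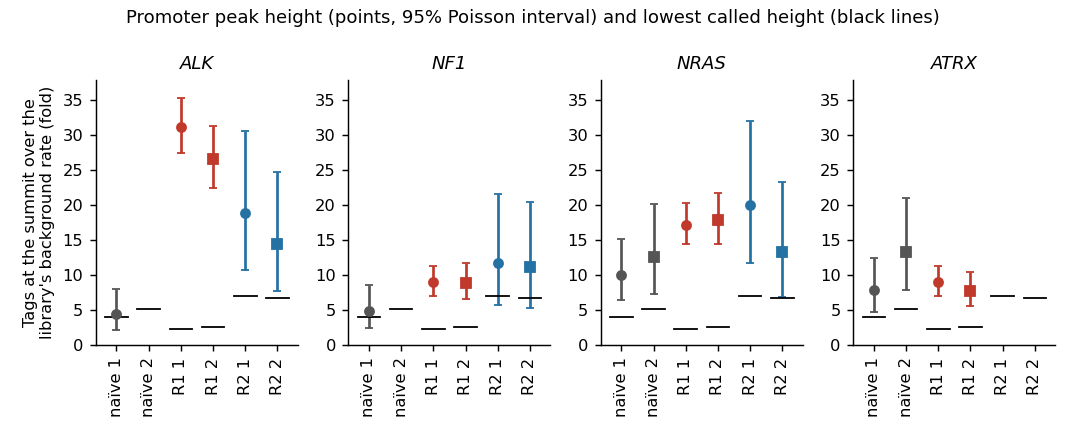
Height of the promoter peak, as tags at the summit over the library's background rate, for ALK, NF1, NRAS and ATRX in the 6 libraries, with 95% exact Poisson intervals as error bars; circles are library 1 and squares library 2, and black lines give the lowest height at which each library called a peak. ALK reached 31.2 and 26.7 in R1 against 4.37 in naïve library 1, and libraries without a point had no peak.

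The LIN28B window had peaks in resistant cells and none in naïve cells. LIN28B (chr6:104936616-105083332, plus strand) had no peak at its canonical start in any library. The naïve libraries held no peak in the window, R1 held 2 and 3, and R2 held 1 in each library. The only region found in all 4 resistant libraries (chr6:104940276-104941664) lay 15.6 kb before the canonical start, over another annotated start of LIN28B that faces the start of the antisense gene LIN28B-AS1. Its tags were 120 and 74 in R1 and 13 and 11 in R2, giving percentiles of 45.8 and 40.2, and 58.5 and 34.0. At the height of R2 library 1, naïve libraries 1 and 2 would have shown 35.0 and 20.7 tags, and at that of R1 library 1 they would have shown 34.6 and 20.4, where peaks were called from 9 and 7. The chromatin around the gene moved in the same direction. All 21 common regions within 5 Mb ranked higher in the resistant cells, by a median of 35.7 percentile points (31.2 in R1 and 35.0 in R2), and the part of this wider difference in the LIN28B peak was not tested. ATAC-seq peaks carry no strand, so LIN28B and LIN28B-AS1 cannot be told apart here. The sequence of that upstream start is given because it lies in the resistant-only region (RefSeq, GRCh38.p14, chr6:104940715-104941014, plus strand).
LIN28B promoter: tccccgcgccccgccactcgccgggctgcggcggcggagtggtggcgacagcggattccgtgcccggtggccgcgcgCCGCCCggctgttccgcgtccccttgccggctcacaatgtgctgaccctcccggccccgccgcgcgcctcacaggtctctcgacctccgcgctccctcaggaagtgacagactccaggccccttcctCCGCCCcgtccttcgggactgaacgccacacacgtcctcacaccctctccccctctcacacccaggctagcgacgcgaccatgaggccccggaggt
It had a GC content of 73.0% and 2 SP and KLF matches, with none of the other 7 sets of letters.

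LMO1 was among the most densely open genes of the set in every library. The gene lies at chr11:8224309-8268716 on the minus strand. Its window held 28 and 20 peaks in naïve, 34 and 35 in R1, and 13 and 10 in R2 cells. Per 100 kb this was 43.5, 31.1, 52.8, 54.3, 20.2 and 15.5, above the densities of 6.90, 4.45, 20.6, 17.2, 1.80 and 2.20 within 1 Mb around it. The excess over the surroundings was seen in all 6 libraries. The promoter peak had percentiles of 45.7 and 7.28 in naïve, 56.8 and 56.7 in R1, and 30.3 and 58.0 in R2 cells. In naïve library 2 and R2 library 2 the summit used lay 912 and 938 bp inside the gene, while in the other 4 libraries it was within 61 bp of the start. R2 library 2 had no peak at the start itself, and with promoters limited to 500 bp LMO1 was no longer among the genes with a peak in all 6. The resistant mean was 24.0 points higher (3.50 without naïve library 2), but R2 library 1 lay below naïve library 1, and the naïve libraries themselves differed by more (26.5 ± 27.2, SD, n = 2). The median of the 101 common regions within 5 Mb was 0.25. Of 33 merged regions 5 were called in all 6 libraries. The strongest of these away from a start was in intron 1 (chr11:8233943-8235101), 29.6 kb into the gene, with percentiles of 42.1 and 68.1 in naïve, 45.8 and 33.7 in R1 and 41.5 and 68.2 in R2. In naïve library 2 and both R2 libraries it outranked the promoter. The cell types overlapped at this region, so the intronic region gave no difference between naïve and resistant cells.

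CASC15 (chr6:21664184-22654455, plus strand) was nearly closed at its canonical start. A promoter peak was called in naïve library 1 (percentile 3.02) and in both R1 libraries (1.39 and 0.38) and in neither R2 library. The gene spans 990 kb, and its window held 5 and 3 peaks in naïve, 30 and 22 in R1, and 2 and 1 in R2 cells. The strongest of them lay 219 kb into the gene in naïve library 1 and both R1 libraries, at percentiles of 30.6, 27.6 and 19.0. In R2 library 1 a peak at 219 kb and one before the start were equally strong (percentile 8.03). In naïve library 2 and R2 library 2 the strongest peak was elsewhere, at percentiles of 17.5 and 14.1. With any of its 77 annotated starts allowed, CASC15 had a promoter peak in all 6 libraries. No single region of CASC15 was called in all 6 libraries.

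TERT was the opposite of CASC15 in its interior. The gene (chr5:1253147-1295068, minus strand) spans 41.9 kb, and its window held 33 and 44 peaks in naïve, 29 and 29 in R1 and 38 and 31 in R2, or 53.3, 71.1, 46.8, 46.8, 61.4 and 50.1 per 100 kb. R1, with the longest lists, had the fewest. Its peaks were long and ran together, so that they covered 79.4% and 77.2% of the window, compared with 58.8% and 46.8% in naïve and 28.7% and 26.9% in R2. The promoter peak itself was modest, at percentiles of 23.0 and 23.2 in naïve, 31.9 and 25.7 in R1, and 30.3 and 5.94 in R2 cells. The summits used in naïve library 2 and R2 library 2 lay 967 and 592 bp inside the gene. The resistant and naïve means differed by 0.32 points, beside a pooled SD of 10.3, and the difference took either sign with the setting, at 13.5 with any annotated start and −13.6 within the own list. Of 26 merged regions 9 were called in all 6 libraries, and 2 of these away from starts were the strongest such regions over all 10 genes. The first, in intron 2 (chr5:1288323-1292570, 5771 bp into the gene), had percentiles of 83.6 and 85.1 in naïve, 50.5 and 53.4 in R1 and 92.6 and 80.8 in R2. R1 was the lowest cell type there, and R2 was at the level of naïve cells. The second, beyond the gene's 3′ end (chr5:1237381-1250834), had percentiles of 63.2 and 91.1, 47.0 and 60.1, and 90.9 and 91.1. It is a chain of overlapping peaks 13454 bp long, and its R1 values were again below both naïve values. The chain runs past the 10 kb flank, and its summit in the best library (1238248) lay outside the window. The nearest annotated start, of ENSG00000287486, was 1172 bp away. The values of naïve library 2 and R2 library 2 came from peaks outside the window. Inside it the strongest peaks of the chain in these libraries had percentiles of 71.2 and 63.6. One short region in intron 2 (chr5:1285130-1285601) was called in all 4 resistant and no naïve library, with percentiles of 4.65 and 3.60 in R1 and 41.5 and 1.39 in R2. At the height of R1 library 1, naïve libraries 1 and 2 would have shown 16.1 and 9.53 tags. At that of R2 library 2 these values were 17.8 and 10.5, where peaks were called from 9 and 7. At all 3 TERT regions the cell types were compared by order alone, since each has 2 libraries.

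**Figure D4:**
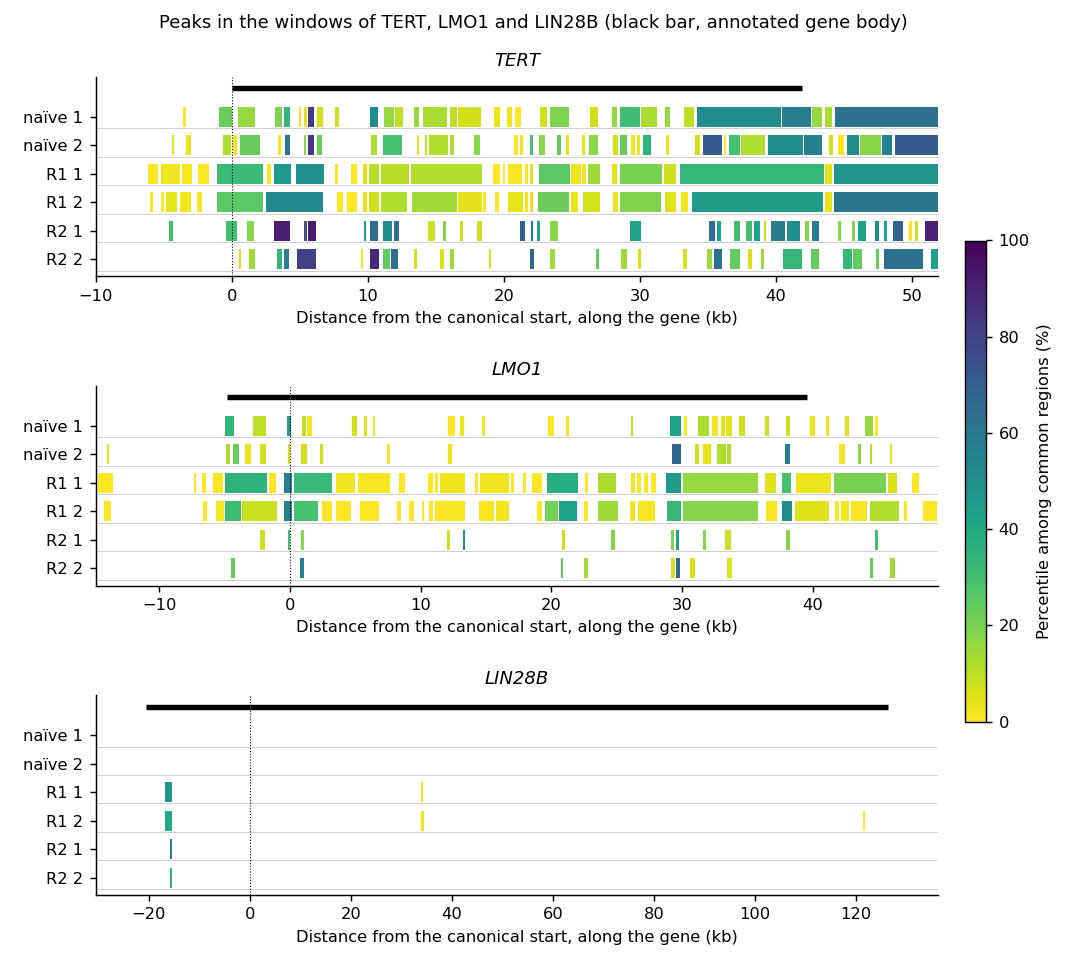
Peaks in the windows of TERT, LMO1 and LIN28B, with distance from the canonical start in kb on the x axis (dotted line at 0), 1 row per library and color giving the percentile among common regions; LIN28B peaks narrower than 0.4 kb are drawn that wide. Peaks cover 26.9% (R2 library 2) to 79.4% (R1 library 1) of the TERT window. For LMO1 they cover 4.76% (R2 library 2) to 65.6% (R1 library 1). The LIN28B peak 15.6 kb before the start is seen in the 4 R1 and R2 libraries.

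ATRX (chrX:77504880-77786233, minus strand) was the member with a lower promoter in resistant cells once missing peaks were counted. The peak had percentiles of 12.8 and 46.6 in naïve and 12.1 and 7.01 in R1, and no peak was called in R2. The 2 naïve libraries differed by more than naïve library 1 and R1 library 1 did. Heights were 7.87 (4.66 to 12.4) and 13.3 (7.90 to 21.1) in naïve and 8.94 (6.98 to 11.3) and 7.73 (5.57 to 10.4) in R1. By height R1 library 1 lay within the range of the naïve libraries, and R1 library 2 was just below it. The common regions were higher in R1 (medians 16.0 and 15.5) than in naïve libraries (12.2 and 14.1), and by percentile both R1 libraries lay below both naïve ones. In R2, 6.69 and 7.07 tags would have been seen at the height of naïve library 1, and 11.3 and 12.0 at that of naïve library 2, where peaks were called from 6. The R2 depth therefore does not separate a missing ATRX peak from one at the height of naïve library 1. The gap between the groups was 0.62 points, and 1161 of 17126 genes had one at least as wide in this direction. Only 6 common regions lay within 5 Mb, with a median difference of 20.7 points toward the resistant cells. The 281 kb gene held 1, 1, 4, 3, 0 and 0 peaks.

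BARD1 (chr2:214725646-214809683, minus strand) had the strongest promoter of the set and the most even one. The percentiles were 99.1 and 98.4 in naïve, 99.4 and 98.4 in R1, and 98.8 and 98.7 in R2 cells. The groups overlapped, and the difference of 0.10 points was below the pooled SD of 0.52. In the 6 lists its rank was between 105 and 416. The summit lay 354 to 414 bp before the canonical start, and 1 to 3 peaks were called in the window in each library, so that nearly all of the signal at this gene was at its promoter. BARD1 and ALK are on the same chromosome, and the 170 common regions within 5 Mb of BARD1 had a median difference of 5.03, close to the 6.91 around ALK.

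**Figure D5:**
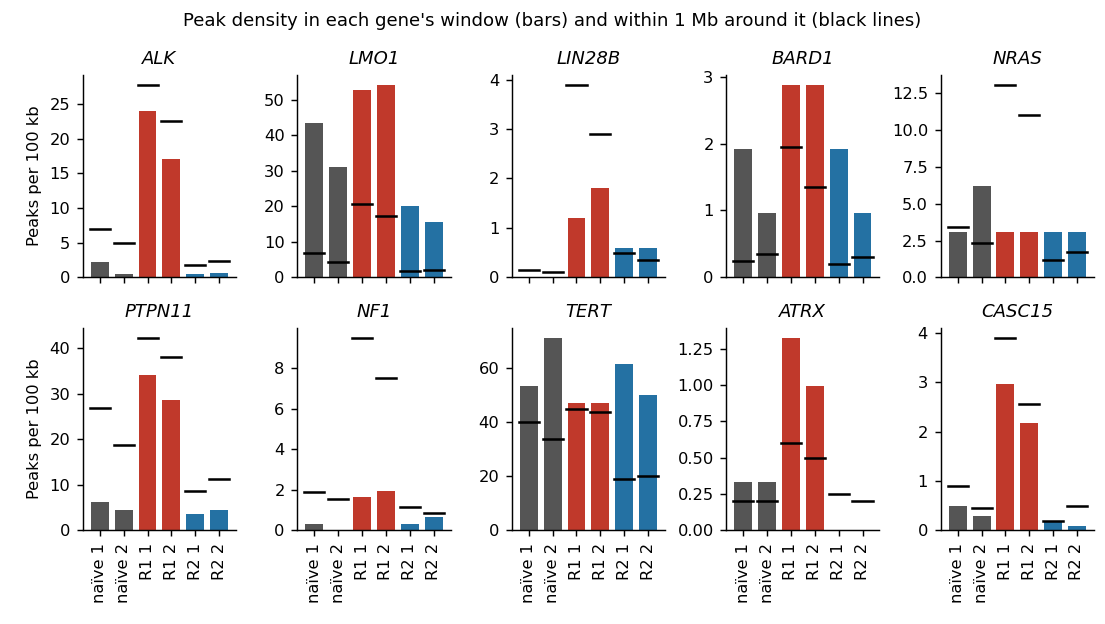
Peaks per 100 kb in the window of each of the 10 genes (bars; gray naïve, red R1, blue R2) and within 1 Mb on either side of it (black lines), in the 6 libraries; each panel has its own y axis starting at 0. LMO1 and TERT exceed their surroundings in all 6 libraries, and ALK, PTPN11, NF1 and CASC15 fall below theirs in all 6.

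Genes that work with the members were read in 7 lists, which were drawn up with earlier results of these data known. Among 11 genes of the ALK receptor and ligand list, 7 had a promoter peak in all libraries, and of these 2 were higher in all 4 resistant libraries and 1 was lower, beside 19.3% and 7.82% of all genes. LTK, the receptor closest to ALK, went from 19.4 and 0.28 in naïve to 41.5 and 36.9 in R1 and 64.5 and 51.3 in R2. IRS1, an adaptor of receptor signaling, went from 34.5 and 17.5 to 75.8 and 70.6, and 73.2 and 78.3. PTN, which encodes the secreted factor pleiotrophin, went the other way, from 58.1 and 41.0 to 3.12 and 1.05, and 18.4 and 14.1. ALKAL2, an activating ligand of ALK, had weak promoter peaks in naïve library 1 (0.78) and in both R1 libraries (4.65 and 4.59) and none in R2. It is named after its values were seen. The list median was 9.52 points, compared with 2.32 over 10946 genes.

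In the RAS and MAPK list all 22 genes had a promoter peak in every library, where 54.8% of protein-coding genes did. Of these 6 were higher and 1 was lower, beside 19.3% and 7.82% of all genes. The median difference was 3.64 points, compared with 2.32 over 10946 genes. SPRED1, an inhibitor of RAS signaling that recruits neurofibromin, had percentiles of 12.8 and 17.5 in naïve, 55.8 and 49.2 in R1 and 69.3 and 75.5 in R2. At this inhibitor every resistant library lay above both naïve libraries. BRAF, the lower one, had 45.7 and 56.4, 30.5 and 45.0, and 41.5 and 43.2, with R1 library 2 just below naïve library 1.

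Of 10 genes of the LIN28B and let-7 list with a peak in all libraries, 2 were higher and none lower (median 10.7 points). HMGA2, a chromatin protein and let-7 target, was 20.0 points higher and the mitotic kinase gene AURKA 19.0 points higher. Of 16 telomere genes 2 were higher and 1 lower (median −1.18), namely WRAP53 (+24.9) and GAR1 (+13.3), both of the telomerase complex, and the shelterin gene POT1 (−9.50). Of 10 DNA repair genes 3 were higher and none lower (median 12.1), with BAP1, a deubiquitinase gene, at +29.5. Of 10 genes in the list of LMO partners and neuroblastoma transcription factors, 1 was higher and 2 lower (median 0.11). ISL1, a factor of sympathetic neurons, was 48.5 points higher, while the LMO-binding adaptor gene LDB1 differed by −21.8 points and GATA3 by −9.18. Of 13 other neuroblastoma genes none was higher and 1, the receptor gene RET, was lower (−15.9, median of the list 2.34). The shares of the lists ranged on both sides of the background of 19.3% higher and 7.82% lower, and no list was tested.

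Across the 10 windows the merged peaks formed 364 regions. Of these 18 were called in all 6 libraries (9 at TERT, 5 at LMO1, 2 at PTPN11 and 1 each at BARD1 and NRAS), 116 in both R1 libraries only, 172 in a single library and 9 in both naïve and both R1 but neither R2 library. The 3 regions called in all 4 resistant and no naïve library were those described at ALK, LIN28B and TERT. None was called in both naïve libraries only or in both R2 libraries only. Such a region had to be absent from the R1 lists, which were the longest at 340558 and 292030 peaks. These pattern counts therefore depend on list length, and their shares over all regions of the 6 lists are not given here. Of the 116 R1 regions, 74 would have reached the lowest called pileup of naïve library 1 at the height of R1 library 1, and 6 would have reached it in all 4 other libraries. By annotation 279 of the 364 regions were intronic and 37 lay at a start of the member gene.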

How the data were processed

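ATAC-seq was measured in 6 libraries, 2 each of naïve, R1 and R2 SK-N-AS xenograft cells. Per the methods and the submitters' processing notes, the authors aligned reads with BWA 0.7.12-r1039, marked duplicates with Picard 1.65, filtered with SAMtools 1.3.1, shifted plus-strand reads by +4 bp and minus-strand reads by -5 bp, and ran MACS2 2.2.7.1 on each library (q of 0.01, extension 200 bp, shift 100 bp). The methods name hg19 and the notes hg19 and hg38. The coordinates ran past the ends of no hg38 chromosome (the closest approach was 9929 bp, on chromosome 22), which does not by itself exclude hg19. The last peaks ended at 83247428 on chromosome 17 and at 64328299 on chromosome 20. Genes were taken from GENCODE release 44 on hg38.

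For every peak the authors deposited a fold enrichment (a ratio over background), a p-value and a q-value, each as −log10, and a display score derived from the q-value, as their peak caller wrote them. No column of another sample was used (0 columns). Each fold is the pileup plus 1 over the background rate plus 1, from which both were recovered. Within a list, ranking by fold or by p gave the same order. Scaled tags are a pileup multiplied by the ratio of 2 background rates.

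Members were found by gene symbol, with the window set to the gene body and 10 kb on either side and promoters to 1000 bp around the canonical start. Named were all 10 members, up to 3 merged regions of each pattern with the best mean percentile, and from each partner list the 2 largest differences in each direction without overlap. Some genes that this rule names are not reported here. The members and lists were chosen with earlier results of these data known. Promoter sequences are RefSeq's (GRCh38.p14), which matched 8 of the 10 members. PTPN11 and ATRX had no entry. Alternatives were other promoter distances, flanks, starts, rankings and thresholds and leaving out each library. Functions were tested on simulated lists and against BEDTools 2.31.1. Python 3.11.15, NumPy 2.4.6, pandas 2.3.3, SciPy 1.17.1, matplotlib 3.10.9 and pysam 0.24.0 were used.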

Additional observations from a re-analysis of the deposited data

How the results depend on the processing

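The count of members with a promoter higher in all resistant than in both naïve libraries was 1 in the report. It was 2 with any annotated start (ALK and NRAS), 0 with percentiles within the own list, 0 against merged regions, 0 with a −log10 q of at least 5, and 3 with a missing peak counted below every peak, an alternative chosen after seeing the data. Under that last alternative the count of lower promoters went from 0 to 1. Leaving out 1 library gave 1 to 3 higher promoters. They were LMO1, BARD1 and NRAS without naïve library 1, and ALK, NRAS and NF1 without naïve library 2. Without R2 library 1 they were LMO1 and NRAS, and without R2 library 2 NRAS and TERT. The share of all genes called higher rose as well, to 30.7% without naïve library 1 and 34.2% without naïve library 2. It was 21.8% and 22.2% without R1 library 1 or 2, and 22.9% and 23.4% without R2 library 1 or 2. Promoter peaks in all 6 libraries went from 5 to 3 members in the top 50000 peaks of each list. The NRAS difference stayed above 0 under 13 alternatives (2.67 to 26.2 points). With the own list, 4.16% and 2.12% of all genes were higher and lower, and against merged regions 15.4% and 11.2%, compared with 19.3% and 7.82% in the report. The cause was not tested. No paired analysis was possible because no result came from a test, and no label ties the library numbers of the cell types together. The TERT difference was 13.5 points with any annotated start and −13.6 within the own list. Peaks of R2 were limited by depth, and 1 tag moved its percentiles by about 10 points near 10 tags.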
